A study of Mus musculus with 20 samples.

Results

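The lipid droplet coat and associated proteins followed here are the products of 10 genes: the perilipins Plin2, Plin3, Plin4 and Plin5, the CIDE genes Cidea, Cideb and Cidec, and Fitm1, G0s2 and Hsd17b13. They were picked by name from the 49315 genes of the table, though with earlier results of these data known. All 10 were found there. The livers came from 20 obese mice of a dietary steatohepatitis model (DIO NASH, the Gubra model), all kept on the AMLN diet. Of these, 10 received vehicle (HEC 1%) and 10 received S217879 (30 mg/kg, PO, QD), both for 8 weeks. By the series' title S217879 disrupts the interaction of the transcription factor NRF2 with its repressor KEAP1. Every animal in both groups carried the fatty liver model, so no level here is set against a lean liver, and age, sex and strain were not given in the sources used here.

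A lipid droplet is a core of triglyceride and cholesteryl ester wrapped in a phospholipid layer, on which coat proteins sit and control access of lipases. Perilipins form the coat, CIDE proteins pass lipid from small droplets to large ones at contact sites, and FIT proteins act in the endoplasmic reticulum where droplets are made. In fatty hepatocytes Plin2 is the leading coat protein, and transcripts such as Cidea, Cidec and Plin4, which are typical of fat cells, are known to appear.

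The perilipin genes and Fitm1 are the members whose transcripts differed between the groups, and short stretches upstream of their starts are shown because their transcripts moved in opposite directions. Promoters of 9 members were matched in the RefSeq table (GRCm38.p6). Cidea had no match. The 250 bases before each start were searched on both strands for TGACNNNGC, the core of the antioxidant response element read by NRF2, for AGGTCA, the half-site of many nuclear receptors, for 2 such half-sites repeated with any 1 base between them, and for CCAAT, a common promoter element that was added after the letters had been seen. Each line below gives 60 bases on the strand of the gene, 5′ to 3′, with the match in capitals, where ATTGG is CCAAT read on the other strand.
Plin2: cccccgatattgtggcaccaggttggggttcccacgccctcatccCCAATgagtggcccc
Plin3: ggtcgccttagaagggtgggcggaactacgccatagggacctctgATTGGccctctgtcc
Plin4: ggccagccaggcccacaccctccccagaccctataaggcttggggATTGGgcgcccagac
Plin5: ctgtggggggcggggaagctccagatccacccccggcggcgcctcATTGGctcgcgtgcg
Fitm1: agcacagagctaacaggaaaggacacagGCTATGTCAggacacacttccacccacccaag

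In Plin2 the match began 73 bases before the start (window chr4:86670118-86670177, minus strand) and in Plin3 75 bases before it (chr17:56290572-56290631, minus strand, which lies inside the longer GENCODE gene model but in none of its exons). In Plin5 it began 62 bases before the start (chr17:56117596-56117655, minus strand), and a second match, not shown, began 224 bases before the start. In Plin4 the match began 18 bases before the RefSeq start (chr17:56109786-56109845, minus strand), where 18 bases of the window, the match among them, are exon in the GENCODE annotation. All 4 perilipin promoters held CCAAT, as did 33.8% of the 32851 promoters in the table, and none of the other 5 members' promoters did. Because CCAAT was chosen after these letters had been seen, that split is no test. The Fitm1 match to TGACNNNGC lies on the opposite strand and begins 222 bases before the start (chr14:55575424-55575483, plus strand). Cideb was the other member with that core, which 10.2% of all promoters held. AGGTCA was present upstream of Plin2, Plin5 and Hsd17b13 (14% of all promoters), and the direct repeat in no member (0.0335% of all promoters). These matches describe letters and say nothing of binding.

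Levels are given in TPM, which corrects for gene length and for the library's total. Libraries are called by their replicate number within the group. Every library sums to 1000000 and the number of reads is unknown. Libraries had 24659 to 27744 genes above 0. Transcripts of 4 rRNA-type genes (Gm23935, Gm24270, Gm42418 and Mir6236) took 58.24% of vehicle library 6 and 50.73% of vehicle library 7, against 14.07% to 38.07% of the other 18, and in TPM this lowers all other genes of a library. Results are given as deposited and after median-of-ratios scaling, which divides each library by its typical ratio to the others. It shifted the median log2 difference of all 13401 tested genes from −0.12 to 0.02. That scaling is not a removal of the rRNA-type share. Rescaling to the total less those 4 genes moved the median the other way, to −0.25. Under that rescaling Cideb was at −0.14 and Hsd17b13 at −0.20, against 0.16 and 0.10 after median-of-ratios scaling. Why the 2 differ was not tested. All 6 NRF2 targets listed as a check of the treatment were called higher by limma, among them Cbr3, a carbonyl reductase, from 8.25 ± 1.83 to 524 ± 149 TPM (SD, n = 10 per group), and Gsta1, a glutathione transferase with close copies, from 13.6 ± 4.55 to 236 ± 52.2 TPM. Each library is a separately numbered animal, but nothing says more of how animals were housed or processed. The p-values set the group difference against the spread between these animals, taken as independent. They do not cover any difference in housing or processing between the groups.

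S217879-treated livers had less mRNA of all 4 perilipins among the members and more of Fitm1. Plin2 was 1.76-fold lower, Plin4 1.54-fold, Plin3 1.47-fold and Plin5 1.33-fold, while Fitm1 was 1.69-fold higher. The 3 CIDE genes, G0s2 and Hsd17b13 did not pass the test. Thus 4 of 10 members were called lower and 1 higher (limma, adjusted p under 0.05), where 23.5% of all tested genes were called lower and 6.07% higher. After scaling 4 members were lower and 2 higher, with Cideb added, where the shares of all genes became 22.7% lower and 30.8% higher. With the scaling taken over the tested genes alone 4 members were lower and 1 higher, where the shares were 27.1% and 26.6%. Without vehicle libraries 6 and 7, 7 members were lower, with Cidea, G0s2 and Hsd17b13 added, and 1 higher, where 54.5% of all tested genes were lower and 5.52% higher. With those libraries left out after scaling, 4 members were lower and 1 higher, where 21.1% of all tested genes were lower and 26.8% higher. The median log2 difference of the 10 members was −0.48 as deposited and −0.33 scaled. All 10 members passed the minimum mean of 1 TPM. In whole liver, fewer cells of a type and less RNA per cell cannot be told apart.

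**Figure D1:**
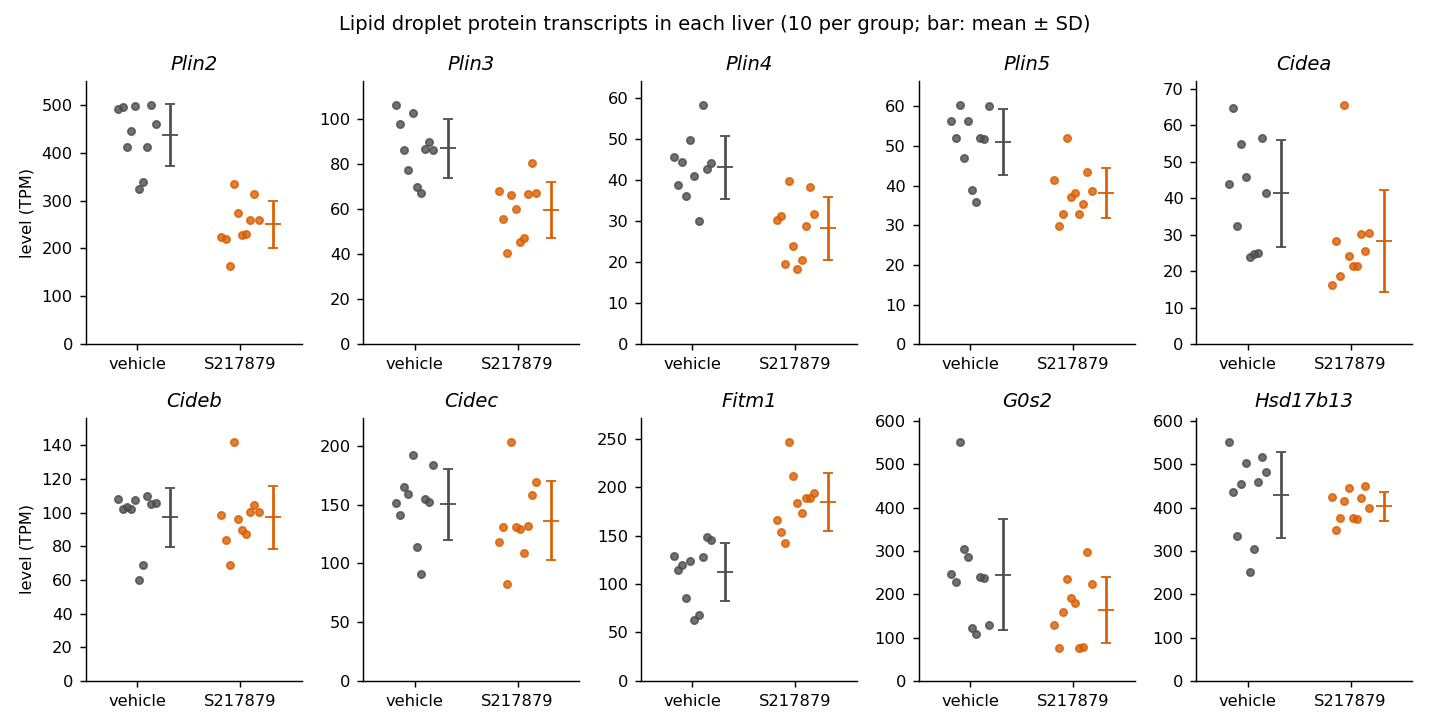
Level of each member (vertical axis, TPM, starting at 0 and scaled per gene) in each of 10 vehicle (grey) and 10 S217879 (orange) livers, with mean ± SD beside the points. The orange points lie below the vehicle median in all 10 libraries for Plin2, Plin3, Plin4 and Plin5, and above it in all 10 for Fitm1, while the CIDE genes, G0s2 and Hsd17b13 overlap widely.

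Plin2, also called adipophilin, coats droplets in most cells and is degraded when it has no droplet to sit on. In vehicle livers its level ran from 324.3 through a median of 452.8 to 499.5 TPM, and in S217879 livers from 164.2 through 244.0 to 333.8 TPM. In 9 of 10 treated livers it was below the lowest vehicle liver, and the lowest vehicle values were those of libraries 6 and 7. The means were 437.6 ± 64.98 and 250.6 ± 49.09 TPM (SD, n = 10 each), a log2 difference of −0.81 with a standard error of 0.13 and a 95% interval from −1.08 to −0.55 (limma adjusted p = 5.12e-06). After scaling the groups no longer overlapped, at 354.4 to 445.8 in vehicle against 191.6 to 303.2 in S217879, which was true of 4.1% of all tested genes in that direction. The log2 difference was then −0.66, and −0.91 as deposited without vehicle libraries 6 and 7.

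Plin3, known as TIP47, moves from the cytosol to newly forming droplets. It measured 67.21, 86.47 and 106.3 TPM (lowest, median, highest) in vehicle and 40.58, 63.2 and 80.34 TPM in S217879 livers. Of the treated livers 8 were below every vehicle liver and 2 were within the vehicle range. The log2 difference was −0.55 with a standard error of 0.13 (limma adjusted p = 0.000687), and −0.40 after scaling. Without vehicle libraries 6 and 7 it was −0.64.

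Plin4 also binds small, new droplets and has a long repeated amphipathic stretch. It measured 30.18, 43.45 and 58.4 TPM in vehicle and 18.31, 29.63 and 39.83 TPM in S217879 livers. The treated livers split evenly, 5 below the lowest vehicle liver and 5 inside the vehicle range, so the groups overlapped more than for Plin2. The log2 difference was −0.63 with a standard error of 0.14 (limma adjusted p = 0.000379), −0.48 after scaling and −0.70 without vehicle libraries 6 and 7.

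Plin5 belongs to tissues that burn fat and tethers droplets to mitochondria. It measured 35.84, 51.95 and 60.31 TPM in vehicle and 29.85, 37.62 and 51.88 TPM in S217879 livers. This was the smallest difference among the perilipins, with 6 treated livers inside the vehicle range. Its log2 difference was −0.41 with a standard error of 0.12 (limma adjusted p = 0.00615), −0.26 after scaling and −0.52 without vehicle libraries 6 and 7. Scaling narrowed its spread, from a coefficient of variation of 16.3% to 7.97% in vehicle and from 16.6% to 7.21% in S217879, and 9 of 10 treated livers then lay below every vehicle liver.

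The 4 genes differ in where they lie. Plin2 (ENSMUSG00000028494) is on chr4:86648386-86670060. The other 3 share chromosome 17 on the minus strand: Plin4 (ENSMUSG00000002831, chr17:56100591-56109803) and Plin5 (ENSMUSG00000011305, chr17:56111601-56117596) are 1797 bases apart, and Plin3 (ENSMUSG00000024197, chr17:56277476-56292873) begins 159879 bases beyond Plin5. Positions are of GRCm38 with GENCODE M21, and Plin4 shares 17 exon bases with Hdgfl2 on the opposite strand. Whether the neighbours varied together was tested within each group. After scaling, Plin4 with Plin5 had a Pearson's r of 0.41 in vehicle (permutation p = 0.214, adjusted 0.428 over the 6 relations computed) and a Spearman's rho of 0.54 (permutation p = 0.113, adjusted 0.226). In S217879 r was 0.04 (permutation p = 0.906, adjusted 0.906) and rho 0.07 (permutation p = 0.867, adjusted 0.867). With TPM as deposited, where the scale of a library moves all genes together, rho in vehicle was 0.72 and passed (permutation p = 0.0234, adjusted 0.0468), while r was 0.65 (permutation p = 0.0398, adjusted 0.0597).

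The summed perilipin level was 618.8 ± 86.04 TPM in vehicle and 376.7 ± 70.34 TPM in S217879 livers (SD, n = 10 each), with 8 treated livers below the lowest vehicle sum of 471.9 TPM. A gene's share of that sum does not depend on the scale of its library. Plin2 made up 70.7% ± 2.05 of it in vehicle and 66.5% ± 2.59 in S217879, and was below every vehicle share in 6 treated livers. The share of Plin5 was 8.25% ± 0.799 and 10.2% ± 1.3, that of Plin3 14.1% ± 0.768 and 15.9% ± 1.67, and Plin4 stood at 7.03% ± 1.23 and 7.46% ± 1.18. These shares were described and not tested. Plin2 remained the largest part of the family's mRNA in every liver, at 61.6% or more.

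**Figure D2:**
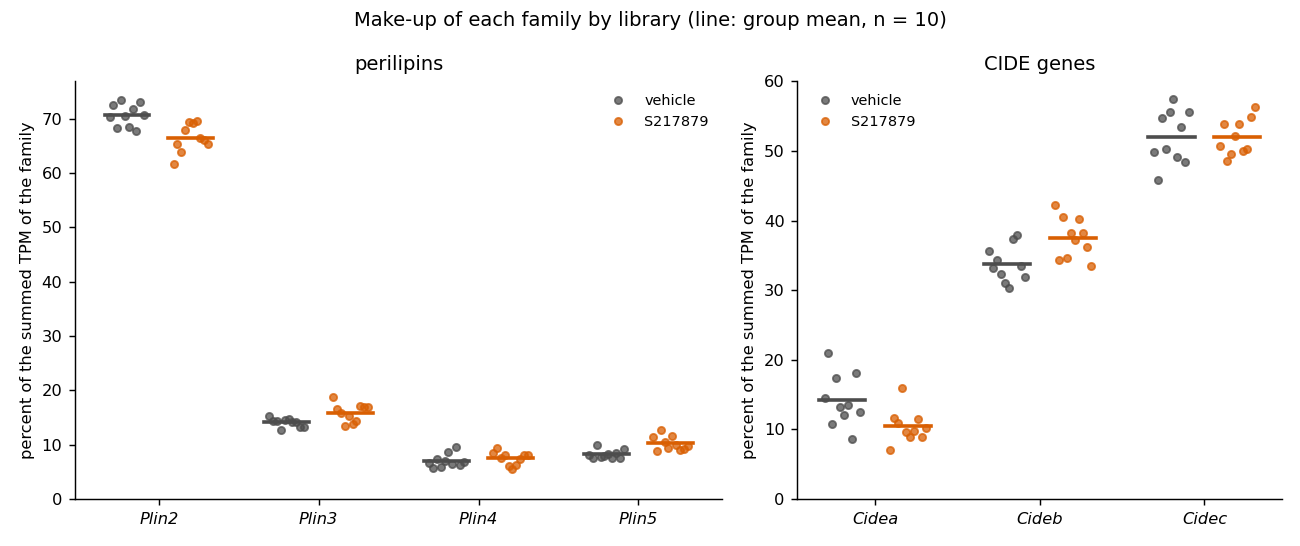
Share of each gene in the summed TPM of its family (vertical axis, percent) in each liver, perilipins on the left and CIDE genes on the right, vehicle grey and S217879 orange, with a line at the group mean. Plin2 is lower and Plin5 higher in S217879, at means of 66.5% and 10.2%, while Cidec stays near 52% in both groups.

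Cidea, Cideb and Cidec gather at droplet contact sites. Cidea is a brown fat protein that appears in fatty liver, Cidec (Fsp27) is the fat cell member, and Cideb is the hepatocyte member, with a known part in loading very low density lipoprotein (VLDL) with lipid. None of the 3 was called as deposited. Their summed level was 289.1 ± 54.11 TPM in vehicle and 262.0 ± 63.85 TPM in S217879 livers.

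Cidea (ENSMUSG00000024526, chr18:67343604-67367785) measured 23.93, 42.59 and 64.78 TPM (lowest, median, highest) in vehicle and 16.37, 24.94 and 65.61 TPM in S217879 livers. In 9 of 10 treated livers it was below the vehicle median, and the exception, S217879 library 4, was the highest of all 20. The log2 difference was −0.57 with a 95% interval from −1.06 to −0.08, and it missed the threshold (limma adjusted p = 0.0759). Without S217879 library 4 the treated mean went from 28.24 ± 13.97 to 24.08 ± 5.043 TPM and the difference was called, at −0.71 (limma adjusted p = 0.00449). It was also called without vehicle library 6 (adjusted p = 0.0319) or without vehicle library 7 (adjusted p = 0.0441), and over all 36 alternatives the adjusted p ran from 0.00183 to 0.132, with 9 of them under 0.05. The difference was negative in all of them.

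Cideb (ENSMUSG00000022219, chr14:55754050-55758458) had equal means, 97.33 ± 17.68 TPM in vehicle and 97.2 ± 19 TPM in S217879 livers. The log2 difference was 0.00 with a 95% interval from −0.26 to 0.26 (limma adjusted p = 0.995). Its sign depended on the scaling: after median-of-ratios scaling it was 0.16 (adjusted p = 0.0208), with 8 of 10 treated livers above every vehicle liver, and with the scaling taken over the tested genes alone 0.12 (adjusted p = 0.0709). Vehicle libraries 6 and 7 held its lowest vehicle values, 60 and 68.76 TPM, and without them the difference was −0.14 as deposited (adjusted p = 0.192) and 0.13 scaled (adjusted p = 0.0729). Of its exon bases 76.3% are shared with Nop9 on the opposite strand, at a mean of 10.2 TPM in vehicle and 10.1 TPM in S217879, and use of strand in the counting is not given, so the Cideb level is uncertain to that extent.

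Cidec (ENSMUSG00000030278, chr6:113424634-113435760) was the most abundant of the 3. It measured 90.68, 153.6 and 192.7 TPM in vehicle and 82.81, 131.2 and 203.8 TPM in S217879 livers, with 8 treated livers inside the vehicle range. The log2 difference of −0.15 had a 95% interval from −0.43 to 0.14 (limma adjusted p = 0.463). Thus a fall of the size seen for Plin2 lies outside the interval for Cidec. After scaling the difference was 0.01. Without vehicle libraries 6 and 7 it was −0.28 as deposited (limma adjusted p = 0.0542) and −0.01 scaled (limma adjusted p = 0.926). Cidec was called lower in 3 of the 36 alternatives, at −0.29 to −0.25.

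Within the family, Cidea took 14.2% ± 3.7 of the summed level in vehicle and 10.4% ± 2.38 in S217879, Cideb 33.8% ± 2.56 and 37.5% ± 2.89, and Cidec 52.1% ± 3.85 and 52.0% ± 2.6 (SD, n = 10 each). No treated liver was outside the vehicle range of the Cidec share, and 5 were above it for Cideb.

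Cidea and Cidec were set against each other within each group after scaling. In S217879 livers Spearman's rho was 0.82 (permutation p = 0.00608, adjusted 0.0365) and Pearson's r 0.73 (permutation p = 0.0232, adjusted 0.0696), with r at 0.66 without the libraries farthest from the median, 1 and 4. In vehicle livers r was 0.05 (permutation p = 0.88, adjusted 0.906) and rho 0.10 (permutation p = 0.784, adjusted 0.867). The difference between the groups' correlations was not tested. For Plin2 with Cidec, r was 0.79 in S217879 (permutation p = 0.00777, adjusted 0.0466) and rho 0.55 (permutation p = 0.105, adjusted 0.226), but r fell to 0.28 without libraries 1 and 3, so the scaled relation rests on those libraries. With TPM as deposited r was 0.90 (permutation p = 0.00093, adjusted 0.00558), rho 0.83 (permutation p = 0.0046, adjusted 0.0138) and r 0.66 without libraries 3 and 4. In vehicle livers r of Plin2 with Cidec was 0.04 after scaling (permutation p = 0.906, adjusted 0.906). As deposited it was 0.76 there (permutation p = 0.0145, adjusted 0.029), and −0.04 without vehicle libraries 6 and 7.

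**Figure D3:**
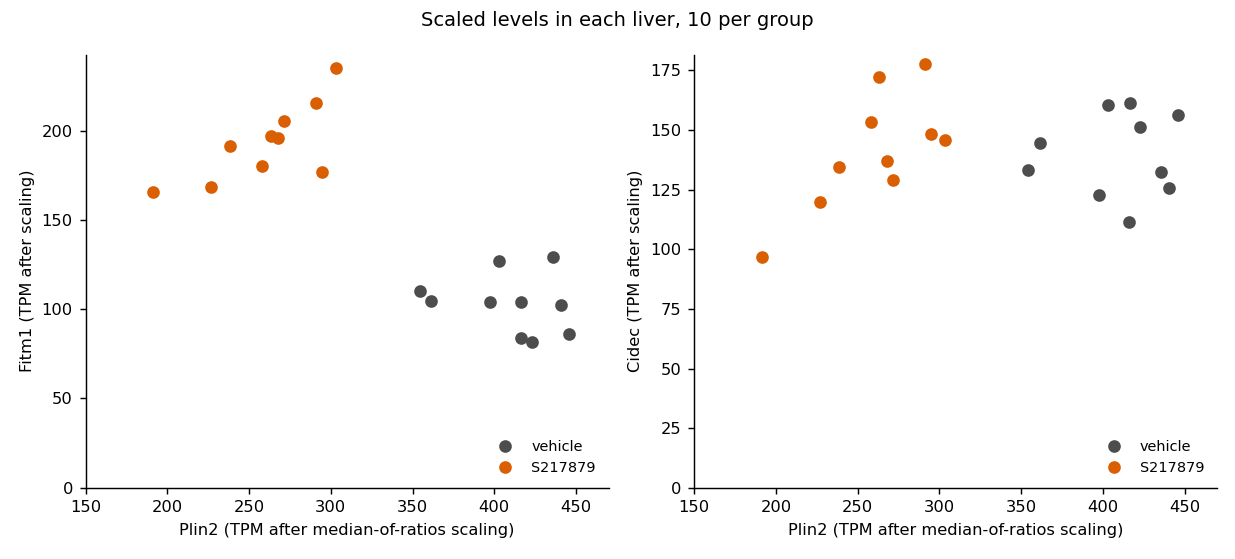
Scaled levels of Fitm1 (left) and Cidec (right) on the vertical axes against Plin2 on the horizontal axis, each point 1 liver, vehicle grey and S217879 orange (TPM after median-of-ratios scaling; the horizontal axis starts at 150). On the left the groups separate on both axes, with Fitm1 at 81.62 to 129.3 in vehicle and 165.8 to 234.9 in S217879, and on the right they separate on Plin2 while their Cidec values overlap.

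Fitm1 encodes a fat storage-inducing transmembrane protein of the endoplasmic reticulum, best known from muscle, that binds triglyceride and favours droplet formation. It was the member that rose. Its level was 62.5, 121.9 and 148.2 TPM (lowest, median, highest) in vehicle and 142.2, 186.3 and 247.0 TPM in S217879 livers. In 9 of 10 treated livers it was above the highest vehicle liver, and the tenth was above the vehicle median. The means were 112.6 ± 30.19 and 185.0 ± 29.77 TPM (SD, n = 10 each), a log2 difference of 0.75 with a standard error of 0.14 and a 95% interval from 0.46 to 1.04 (limma adjusted p = 8.27e-05). After scaling it was 0.91 and the groups did not overlap, as for 8.66% of all tested genes in that direction, and without vehicle libraries 6 and 7 it was 0.57 as deposited and 0.84 scaled.

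Fitm1 (ENSMUSG00000022215, chr14:55575617-55576954) shares 11.2% of its exon bases with the antisense gene Gm15932, which had means of 4.8 and 4.02 TPM. Its partner of the same family, Fitm2, the widely expressed FIT protein, measured 46.7 ± 10.5 and 48.3 ± 8.12 TPM, a log2 difference of 0.07 (limma adjusted p = 0.737) as deposited and 0.22 scaled (adjusted p = 0.0285). Cideb lies 177095 bases from Fitm1 on the same chromosome. Since Fitm1 is known as a muscle transcript, skeletal muscle markers were read in the same libraries. All 7 (Acta1, Ckm, Mb, Myl1, Myh1, Myh4 and Tnnt3) were below the minimum mean of 1 TPM, with a summed level of 0.0942 to 0.3895 TPM in vehicle and 0.034 to 0.3734 TPM in S217879.

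G0s2 encodes a short protein that binds and inhibits adipose triglyceride lipase, the enzyme that opens triglyceride breakdown. It lies on chr1:193272161-193273217 (ENSMUSG00000009633). It varied widely between animals, at 107.9, 239.3 and 552.3 TPM in vehicle and 75.76, 169.6 and 298.2 TPM in S217879 livers, with coefficients of variation of 52.0% and 46.2%. The groups overlapped, with 7 treated livers inside the vehicle range and 3 below it. The log2 difference of −0.57 had a 95% interval from −1.24 to 0.10 (limma adjusted p = 0.191), so that either no change or a fall larger than that of Plin2 lies within it. Scaling left the spread at 46.3% and 40.2%. Without vehicle libraries 6 and 7 the difference was −0.81 (adjusted p = 0.0317), and with the same libraries left out after scaling −0.54 (adjusted p = 0.116).

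Hsd17b13 encodes a droplet-bound retinol and steroid dehydrogenase made largely in hepatocytes. It lies on chr5:103955440-103977410 (ENSMUSG00000034528). It measured 252.0, 456.4 and 552.1 TPM in vehicle and 347.1, 407.6 and 449.6 TPM in S217879 livers. All 10 treated livers were inside the vehicle range and all 10 were below the vehicle median. The lowest vehicle values were those of libraries 6 and 7. The log2 difference was −0.06 with a 95% interval from −0.33 to 0.21 (limma adjusted p = 0.79). Its sign turned with scaling, to 0.10 (adjusted p = 0.251), and without vehicle libraries 6 and 7 it was −0.20 as deposited (adjusted p = 0.0402) and 0.07 scaled (adjusted p = 0.492).

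**Figure D4:**
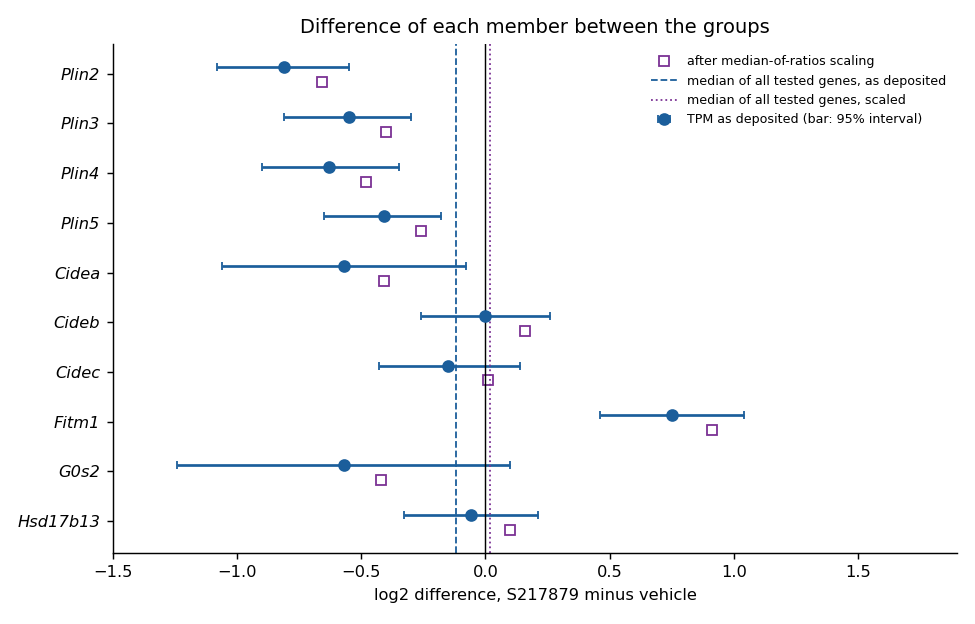
Log2 difference of each member, S217879 minus vehicle (horizontal axis), as deposited with its 95% interval (filled circles) and after median-of-ratios scaling (open squares), with the median of all tested genes as a dashed line at −0.12 (deposited) and a dotted line at 0.02 (scaled). Plin2 to Plin5 lie left and Fitm1 right of both lines in both forms, while Cideb and Hsd17b13 lie right of the line of their own form in both, with Hsd17b13 left of 0 as deposited and right of it scaled.

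In vehicle livers the order of mean level was Plin2, Hsd17b13, G0s2, Cidec, Fitm1, Cideb, Plin3, Plin5, Plin4 and Cidea, from 437.6 down to 41.36 TPM. Neighbours in that order overlapped in range except Plin3 and Plin5. In S217879 livers it was Hsd17b13, Plin2, Fitm1, G0s2, Cidec, Cideb, Plin3, Plin5, Plin4 and Cidea, from 402.8 to 28.24 TPM. Hsd17b13 and Plin2 no longer overlapped there, with Hsd17b13 above Plin2 in all 10 treated livers and Plin2 above Hsd17b13 in 4 of 10 vehicle livers. All other neighbours overlapped. Among all tested genes Plin2 ranked above 98.5% in vehicle and 97.2% in S217879.

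Genes that act on droplets with these proteins were read from the same comparison. The counts of this and each later list stand beside 23.5% of all tested genes called lower and 6.07% called higher as deposited. After scaling those shares were 22.7% and 30.8%. Of 9 genes of lipolysis and its regulation, 1 was called higher and 3 lower. Ces1d, a hepatic triglyceride hydrolase, rose from 411 ± 118 to 576 ± 92.6 TPM (log2 0.54, limma adjusted p = 0.00617). Pnpla3, a droplet-bound relative of adipose triglyceride lipase, fell from 3.05 ± 1.92 to 0.666 ± 0.379 TPM (log2 −1.49, limma adjusted p = 0.000227), and Hilpda, another inhibitor of that lipase, fell from 5.17 ± 0.727 to 3.96 ± 0.899 TPM (log2 −0.36, limma adjusted p = 0.0126). The third was Lipa, the lysosomal acid lipase (log2 −0.34, limma adjusted p = 0.0388). Pnpla2, adipose triglyceride lipase itself and the target of G0s2, measured 71.0 ± 16.2 and 71.2 ± 12.5 TPM and was not called (log2 0.02, limma adjusted p = 0.925). The counts were the same after scaling, and the median of the list was −0.12 as deposited and 0.03 scaled.

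Of 11 genes of droplet formation, 0 were called higher and 3 lower as deposited, and 5 higher and 3 lower scaled. Among all tested genes 6.07% were higher and 23.5% lower as deposited, and 30.8% and 22.7% scaled. Acsl3, the acyl-CoA synthetase of nascent droplets, fell from 19.1 ± 5.54 to 8.1 ± 2.1 TPM (log2 −1.17, limma adjusted p = 3.3e-07). Lpin2, a phosphatidate phosphatase, fell from 86.6 ± 14.2 to 56.6 ± 5.28 TPM (log2 −0.60, limma adjusted p = 6.43e-05), and Tmem159, the seipin partner also called LDAF1, by 0.32 on the log2 scale (limma adjusted p = 0.0442). The list's median was −0.03, and 0.13 scaled.

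Of 18 other droplet surface proteins, 2 were called higher and 4 lower, and 8 higher and 3 lower after scaling. Among all tested genes 6.07% were higher and 23.5% lower, and 30.8% and 22.7% after scaling. Mettl7a1, a methyltransferase-like droplet protein, rose from 305 ± 72.5 to 485 ± 50.2 TPM (log2 0.70), and Rdh10, a retinol dehydrogenase, from 16.8 ± 3.45 to 25.3 ± 2.16 TPM (log2 0.60, limma adjusted p = 8.72e-05). Hsd17b7, which acts in cholesterol synthesis, fell by 0.47 and Lpcat2, a lysophosphatidylcholine acyltransferase, by 0.48 on the log2 scale (limma adjusted p = 0.00131 for Lpcat2). The median was −0.10, and 0.05 scaled.

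None of the 7 genes of VLDL assembly and secretion was called by limma as deposited. After scaling 3 were higher and 0 lower, where 30.8% of all tested genes were higher and 22.7% lower. Apob, the structural protein of VLDL, measured 1090 ± 206 and 981 ± 104 TPM (log2 −0.13, limma adjusted p = 0.482), and Sar1b, a coat GTPase of secretory vesicles, 262 ± 54.5 and 233 ± 35.1 TPM.

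Several of the members are textbook targets of PPAR-gamma (Cidea, Cidec, Plin4) or PPAR-alpha (Plin2, Plin5), so other targets were counted. Of 8 genes listed for PPAR-gamma in fatty liver, 3 were called higher and 3 lower (4 and 2 after scaling). Among all tested genes 6.07% were higher and 23.5% lower (30.8% and 22.7% after scaling). Lpl, lipoprotein lipase, rose from 29.3 ± 4.92 to 47.7 ± 7.58 TPM (log2 0.70, limma adjusted p = 1.2e-05), Cfd, the fat cell protease adipsin, by log2 2.37 (limma adjusted p = 0.000295) and Cd36, a fatty acid carrier, by log2 0.55. Fabp5, a fatty acid binding protein, fell from 8.5 ± 1.8 to 4.13 ± 0.911 TPM (log2 −0.95, limma adjusted p = 3.54e-08), Acacb, the mitochondrial acetyl-CoA carboxylase, by log2 −1.13 (limma adjusted p = 0.00945) and Fabp4 by log2 −0.41. After scaling Fabp4 was no longer called (log2 −0.27, limma adjusted p = 0.106). Pparg itself measured 18.8 ± 4.36 and 18.8 ± 2.53 TPM, a log2 difference of 0.03 (limma adjusted p = 0.871), and was the gene called higher after scaling, at 0.19 (limma adjusted p = 0.0455). Genes of this list thus moved both ways, and the part of the receptor was not tested.

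Of 14 PPAR-alpha targets, 1 was called higher and 7 lower (5 and 7 after scaling), with a median of −0.32, or −0.16 scaled. Among all tested genes 6.07% were higher and 23.5% lower (30.8% and 22.7% after scaling). Cyp4a14, a fatty acid omega-hydroxylase, fell from 181 ± 80.0 to 24.5 ± 16.9 TPM (log2 −2.96, limma adjusted p = 7.41e-07), and Acot2, a mitochondrial acyl-CoA thioesterase, from 17.5 ± 3.17 to 5.24 ± 2.09 TPM (log2 −1.72, limma adjusted p = 3.32e-07). Ehhadh, a peroxisomal beta-oxidation enzyme, rose from 303 ± 77.6 to 531 ± 56.8 TPM (log2 0.85, limma adjusted p = 1.04e-05). Ces1d, Mettl7a1, Cyp4a14 and Acot2 belong to families with near-identical copies, and reads shared among copies make their levels uncertain.

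Markers of liver cell types were read beside the members. Their counts stand beside 6.07% of all tested genes called higher and 23.5% called lower, or 30.8% and 22.7% after scaling. The 8 hepatocyte markers were all measured, at a summed 27810 to 63210 TPM in vehicle and 34170 to 52520 TPM in S217879, with 1 called higher (Ttr; 2 after scaling) and 2 lower (Apoa1 and Ass1; 2 after scaling). Of 8 macrophage markers 6 were lower, also after scaling, with a summed 592.2 to 1150 TPM in vehicle and 479.1 to 885.4 TPM in S217879. Gpnmb, a gene of lipid-laden macrophages, fell by 1.40 on the log2 scale. Trem2, a lipid receptor of those cells, fell by 1.06 on that scale. Of 8 stellate cell markers 8 were lower (7 after scaling), at a summed 266.9 to 496.8 TPM against 200.2 to 381.7 TPM, with Col1a1 and Col3a1 in the lead. Of 5 tested cholangiocyte markers 2 were lower (Spp1 and Epcam, also after scaling), at a summed 178.7 to 469.6 TPM against 90.1 to 245.8 TPM. Most of that sum was Spp1 alone, at 286 ± 68.6 and 144 ± 52.6 TPM. Krt19 (log2 −0.26), Sox9 (log2 −0.08) and Cldn7 (log2 −0.46) were not called. Of 6 sinusoidal endothelial markers 2 were higher (Lyve1 and Clec4g, and 4 after scaling), at 71.78 to 147.2 TPM against 116.0 to 158.7 TPM. The part of these cell type markers in the fall of the perilipins was not tested.

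Plin4, Cidea and Cidec are also transcripts of fat cells, so fat cell markers were read too. Of 8 fat cell markers 3 reached the minimum, and 1, Cfd, was higher, from 20.8 ± 12.5 to 102 ± 57.4 TPM. Adrb3, at 5.77 ± 1.37 and 5.71 ± 0.94 TPM, and Car3 were not called. The summed level was 291.9 to 1515 TPM in vehicle and 553.5 to 1067 TPM in S217879, most of it Car3, which hepatocytes also express (874 ± 324 and 699 ± 103 TPM). The others on the list, Adipoq, Plin1, Lep, Retn and Slc7a10, were each at 0.0921 TPM or less in every library.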

How the data were processed

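Polyadenylated RNA of 20 livers was sequenced after stranded library preparation, per the labels' protocols. The submitters' processing notes name Trimmomatic 0.36, STAR 2.5.2b, featureCounts, Subread 1.5.2 and GRCm38; not given in the sources used here are annotation and strand use. The authors deposited TPM values, which keep no depth, so precision is the spread between animals. Columns were matched through the animal number in the labels (0 unmapped, 0 identical library pairs), and 48970 of 49315 genes received a symbol. Spart is listed as Spg20.

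The members and lists were chosen with earlier results of these data known. Values were taken as log2(TPM + 0.5), which understates changes of low genes, and the 13401 genes averaging 1 TPM or more were tested with limma 3.58.1 in R 4.3.3 (trend, robust, group only, Benjamini-Hochberg adjusted p under 0.05). No list was tested as a set. Scaling used median-of-ratios factors over the 19481 genes above 0 in every library. Relations used two-sided permutation tests of 100000 resamples. The steps were tested on simulated data. Promoters came from RefSeq (GRCm38.p6), positions from GENCODE M21.

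The text names the 10 members and, of each list, the 2 genes called with the highest and the 2 with the lowest log2 difference, or, in a list without calls, the 2 of highest mean TPM. Fitm2, Lipa, Pnpla2, Tmem159, Cd36, Fabp4, Pparg, Car3, Adrb3, Krt19, Sox9, Cldn7, untested markers and the 4 rRNA-type genes are named beyond that rule, chosen after their values were seen. Alternatives were a pseudocount of 0.1 or 1, a filter at a mean of 0.1 or 5 TPM or no filter, 4 other scalings, eBayes without trend and robust, array weights, a Wilcoxon rank-sum test, leaving out each library, and vehicle libraries 6 and 7 together. Those chosen after seeing the data were median-of-ratios scaling over tested genes alone, without vehicle libraries 6 and 7, and without S217879 library 4.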

Additional observations from a re-analysis of the deposited data

Results flagged for a closer look

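Of 34 groups of 10 livers checked with Dixon's test for a library far from the rest, 4 stood out, and chance marks about 1 in 20. Cidea in S217879 library 4 was 65.61 TPM, with the next liver at 30.49 TPM. Cideb in the same library was 142.3 TPM, with the next at 104.6 TPM. The share of Cidea in the CIDE genes was 15.94% there, with the next at 11.69%. That library was the highest of the 10 treated livers for 7 members, namely Plin2, Plin4, Plin5, Cidea, Cideb, Cidec and Fitm1, and after scaling for Plin5, Cidea, Cideb and Cidec. It also had the lowest share of rRNA-type transcripts, 14.07%, whose part in these values was not tested. G0s2 in vehicle library 3 was 552.3 TPM, with the next liver at 305.3 TPM.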

How the results depend on the processing

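Plin2, Plin3, Plin4, Plin5 and Fitm1 kept their direction and their call in all 36 alternatives, with log2 differences of −0.96 to −0.64, −0.70 to −0.37, −0.77 to −0.43, −0.56 to −0.25 and 0.52 to 0.91. The number of members called lower was 8 with quantile normalization, 8 after rescaling to the total less the 4 rRNA-type genes, 8 with array weights and 7 without vehicle libraries 6 and 7 together, against 4. Under the first 3 settings Cidea, Cidec, G0s2 and Hsd17b13 were added, and without libraries 6 and 7 Cidea, G0s2 and Hsd17b13. Of all tested genes 25%, 64% and 59.9% were called lower under the first 3 and 54.5% without those libraries, against 23.5%, and their median difference was 0.00, −0.25, −0.22 and −0.23. The number called higher was 2 with median-of-ratios scaling and 2 with that scaling without S217879 library 4, both times with Cideb added, where 30.8% and 30.5% of all tested genes were higher. The cause of these changes was not tested. Leaving out each library in turn gave 4 to 5 members lower and 1 higher, and only Cidea changed its call, without vehicle library 6, vehicle library 7 or S217879 library 4. With TPM as deposited, r of Cidea with Cidec in S217879 was 0.80 (permutation p = 0.00741, adjusted 0.0222), and r of Plin2 with Cidec in vehicle was 0.76 (permutation p = 0.0145, adjusted 0.029) but −0.04 without vehicle libraries 6 and 7. Plin2 with Cidec in S217879 passed in both forms by r, and by rho as deposited only, as did Plin4 with Plin5 in vehicle by rho. No paired analysis was possible because the labels give every animal its own number. The depth of the libraries is unknown, so no counting error can be given.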

Other observations

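Ratios within a library do not depend on its scale, and 5 were chosen after the values were seen and are given without a test. Fitm1 to Plin2 was 0.193, 0.256 and 0.315 (lowest, median, highest) in vehicle and 0.601, 0.746 and 0.866 in S217879 livers. The lack of overlap had to follow, because each of these genes already separated the groups after scaling, in opposite directions. Fitm1 to Fitm2, the FIT proteins against each other, was 1.74, 2.46 and 2.81 in vehicle and 2.81, 3.92 and 4.48 in S217879. Hsd17b13 to Plin2 was 0.777, 1.02 and 1.12 in vehicle and 1.25, 1.63 and 2.29 in S217879, also without overlap, where Plin2 alone separated the groups after scaling. How often other gene pairs separate the groups was not counted. Plin5 to Plin2 was 0.103, 0.114 and 0.146 against 0.136, 0.146 and 0.2, with 5 treated livers inside the vehicle range. G0s2 to Pnpla2, the inhibitor against its lipase, was 1.4, 3.01 and 7.97 against 1.01, 2.38 and 3.7, with 7 treated livers inside the vehicle range.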
